A study of Rattus norvegicus with 16 samples.

Results

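Gene expression in the bruised cortex of the rat was compared between 48 h and 12 h after moderate fluid percussion from the side, a pulse of pressure onto the dura used as a model of traumatic brain injury. The members were the 3 arrays of injured cortex at 48 h and the 3 arrays of injured cortex at 12 h, 6 of the 16 arrays of the series, chosen by their titles. All groups were male Wistar rats of 8 weeks with an opening in the skull over the right parietal cortex, made 48 h before the percussion or the sham procedure, so the shams carried the craniectomy too. The other arrays were injured cortex at 3 h and 6 h (3 arrays each) and 1 sham array at each of 3, 6, 12 and 48 h. Animals were perfused with saline, the cortex at the contusion was cut out, and its polyadenylated RNA was labelled for 1 Affymetrix array per sample. The labels number the replicates anew at each time and do not state whether an array holds 1 animal or a pool. The p-values therefore measure the spread between arrays. No sham entered the test of the step from 12 to 48 h. Sham values stand beside the results.

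After a contusion, resident microglia and astrocytes respond within hours, and endothelial cells and glia release chemokines that draw in neutrophils and then monocytes. The early cytokine and interferon responses are damped by feedback inhibitors, while macrophages and microglia clear debris through lysosomes and glial, immune and vascular cells divide. Fibroblasts of the meninges and of the vessel wall lay down matrix at the wound.

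Each value is on a log scale, taken here as log2, and was centred by the authors near the median of its probe set over the 16 arrays. A difference of 1 is therefore 2-fold, and a value says nothing of how abundant a transcript is, so the labelled tissue could not be checked against marker levels. The values of all probe sets of a gene were averaged. In bulk tissue, fewer cells of a type and less RNA per cell cannot be told apart. Replicate 2 at each time had the widest spread over genes among the 6 arrays (SD 0.372 at 12 h and 0.387 at 48 h, against 0.231 to 0.310 in the other arrays). The 12 h replicate 2 also had the lowest polyA spike-in controls, at a mean of -1.69 over 24 probe sets, against -0.18 to 0.01 in the other 5 arrays. No 2 of the 16 arrays were duplicates (smallest root mean square difference 0.184).

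From 12 to 48 h, 1006 of 14217 genes rose (7.08%) and 801 fell (5.63%) at an adjusted p under 0.05, 12.7% in either direction. Of these, 189 rose and 79 fell by at least 2-fold, and the median size of the step among called genes was 0.51. The fit took the spread from all 12 injured arrays, and a fit to the 6 arrays alone called 264 and 124. Without replicate 2 of both times 499 genes rose and 325 fell, and 733 of those 824 calls were among the 1807. Leaving out a single array gave 582 to 1137 higher and 435 to 949 lower genes, with the fewest without 48 h replicate 1 (582 and 435), followed by 48 h replicate 2 (636 and 446) and, for the lower genes, 12 h replicate 2 (506). The 12 h and 48 h arrays did not overlap in 1759 of the 1807 called genes and in 26.5% of all genes.

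The called genes were then placed against the shams. They were chosen by the step between the same injured arrays, so part of this placing follows from the choice. Among the 801 lower genes, 370 (46.2%) had all 12 h arrays above the 4 shams, and 301 of these overlapped the shams at 48 h. At 48 h, 269 of the lower genes (33.6%) lay below all 4 shams, 222 of them after overlapping the shams at 12 h. Among the 1006 higher genes, 358 (35.6%) lay below the shams at 12 h, and 259 of these overlapped them at 48 h. At 48 h, 441 of the higher genes (43.8%) lay above all 4 shams, 338 of them after overlapping the shams at 12 h. Over all genes, 7.92% lay above and 8.00% below the shams at 12 h, and 8.76% each at 48 h. The sham step, the single 48 h sham minus the mean of the 3 earlier shams, is set beside the injured step below as a value without replicates at 48 h. By limma on all 16 arrays it was called in 1 gene, Alb (973 had an unadjusted p under 0.05). It was above 0 in 847 of the 1006 higher genes (84.2%, median 0.21), against 49% of all genes. In the lower genes it was above 0 in 217 of 801 (27.1%, median -0.11).

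**Figure D1:**
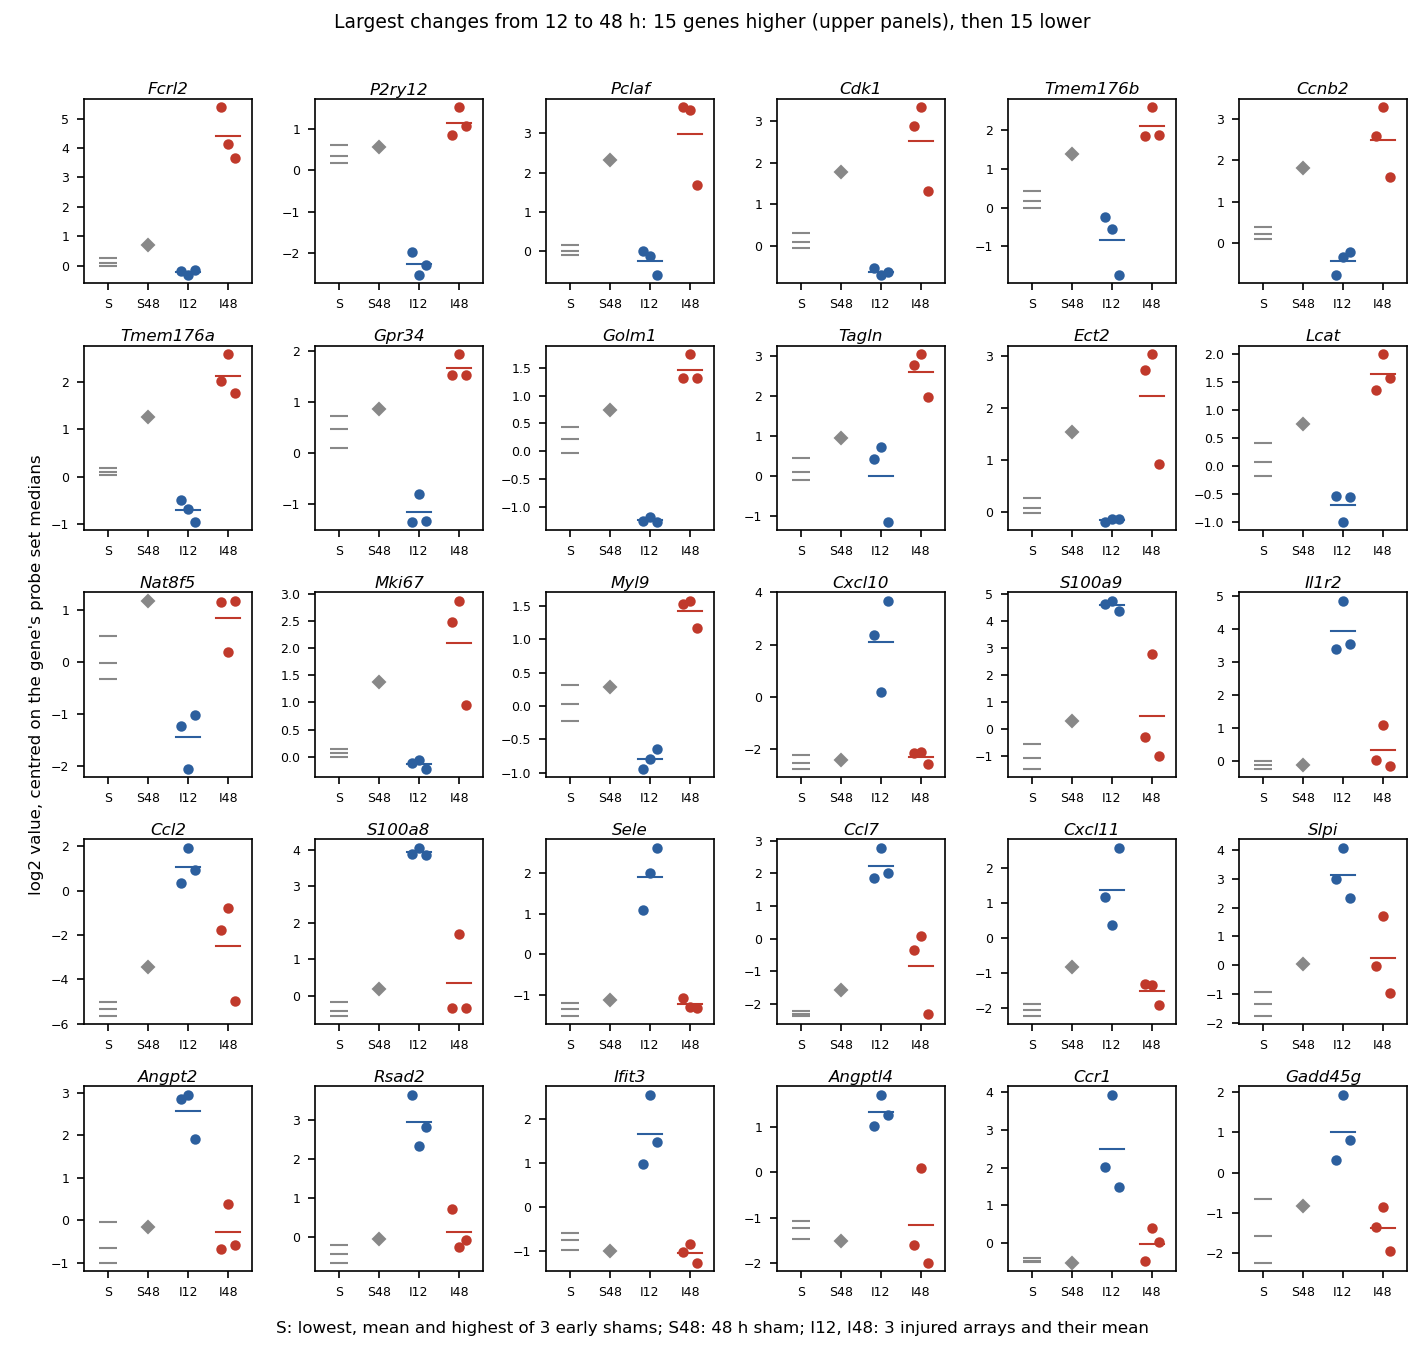
Values by array of the 15 genes with the largest rise and the 15 with the largest fall from 12 to 48 h, on the deposited log2 scale, each panel with its own axis. Grey bars are the lowest, mean and highest of the 3 early shams, the grey diamond is the 48 h sham, and blue and red points are the injured arrays at 12 and 48 h with their mean as a line. The genes were chosen among those whose 12 h and 48 h points do not overlap. In all risen genes but P2ry12 and Myl9 the 48 h sham lies above the 3 early shams.

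All 10 genes of the resting microglia list rose, with a median step of 1.72. In the 48 h sham the same list was 0.30 above the early shams. P2ry12, the ADP receptor that steers microglial processes, read -1.98, -2.54 and -2.29 at 12 h and 0.86, 1.54 and 1.08 at 48 h, against early shams of 0.17 to 0.62 and a 48 h sham of 0.58. It was thus below every sham at 12 h and above every sham at 48 h. The step was 3.43 ± 0.31 (SE), 10.8-fold, with an adjusted p of 0.000176. At 3 h its mean was -0.23 and at 6 h -2.04.

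Gpr34, a lysophosphatidylserine receptor of microglia, followed the same course, with -1.36, -0.82 and -1.34 at 12 h and 1.52, 1.94 and 1.53 at 48 h. Every sham, from 0.10 to 0.86, lay between the 2 groups of injured arrays. The step was 2.84 ± 0.20 (SE, adjusted p = 5.1e-05). Tmem119, a microglial membrane protein, rose by 1.98 ± 0.28 (SE) from -0.87, -0.71 and -0.72 to 0.76, 1.40 and 1.48. The early shams reached 0.95, so the 48 h arrays overlapped them. Cx3cr1, the fractalkine receptor, rose by 1.04 ± 0.18 and Csf1r, the receptor for macrophage colony stimulating factor, by 1.69 ± 0.23. Neither of these was below the shams at 12 h in every array.

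Trem2, a lipid-sensing receptor of microglia and macrophages, read -0.55, -0.33 and -0.39 at 12 h and 1.98, 1.63 and 1.14 at 48 h. The 48 h sham was at -0.21, below the early shams (0.05 to 0.30), so the sham step ran the other way. The injured step was 2.01 ± 0.18 (SE, adjusted p = 0.000176). All 10 genes stayed called when any 1 array was left out and without replicate 2 of both times, and 9 did in the fit to 6 arrays. Over the list, 5 of 10 genes were below all shams at 12 h and 8 of 10 above all shams at 48 h.

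The largest rise of all genes was in Fcrl2, listed in rodents also as Fcrls, an Fc receptor-like gene. It read -0.20, -0.32 and -0.14 at 12 h and 5.39, 4.14 and 3.66 at 48 h, with early shams of -0.03 to 0.25 and a 48 h sham of 0.69. The 48 h arrays stood far above all others. The step was 4.62 ± 0.41 (SE), 24.5-fold, with an adjusted p of 0.000176. Golm1, a Golgi membrane protein, had the smallest adjusted p of the genes named here (4.68e-06). Its 12 h arrays lay at -1.25, -1.19 and -1.27 and its 48 h arrays at 1.31, 1.75 and 1.31, with the 4 shams, from -0.03 to 0.74, in between. Tmem176a and Tmem176b, paired membrane proteins of immune cells, rose by 2.84 ± 0.23 and 2.95 ± 0.37, and the 48 h sham was also above the early shams by 1.17 and 1.23. Lcat, which esterifies cholesterol in lipoproteins, rose by 2.33 ± 0.22. Nat8f5 rose by 2.27 ± 0.31, and the 48 h sham, at 1.16, lay within the range of its 48 h arrays (0.19 to 1.17).

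Genes of debris clearance rose in part. In the lysosome list 14 of 22 genes rose and 2 fell (Ctsk and Atp6v1b2, both named after their values were seen), with a median step of 0.70 and a sham step of 0.06. Relative to the early shams, the list's median was 0.02, 0.14 and -0.05 in the 12 h arrays and 0.66, 1.11 and 0.46 in the 48 h arrays. Laptm5, a lysosomal membrane protein of blood cells, rose by 1.64 ± 0.26 (SE, adjusted p = 0.00288) and Grn, which encodes progranulin, by 1.50 ± 0.24 (adjusted p = 0.00283). Ctsz, a cathepsin, rose by 1.74 ± 0.47, but its call ended without 12 h replicate 1 or 3 or 48 h replicate 1 or 2 (adjusted p = 0.0586, 0.0913, 0.0699 and 0.105), and the 48 h sham was 1.80 above the early shams. The count of 14 became 9 in the absence of 12 h replicate 3 or 48 h replicate 2, and 8 in the fit to the 6 arrays.

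Among 25 genes of phagocytic macrophages and microglia 6 rose and none fell, with a median step of 0.41 beside 0.27 in the sham. Cd68, a lysosomal glycoprotein of phagocytes, read 0.24, 1.34 and 0.06 at 12 h and 2.88, 3.91 and 1.48 at 48 h, with the shams from -0.44 to 0.04. All 6 injured arrays were above the shams. The step was 2.21 ± 0.49 (SE, adjusted p = 0.0139). Fcgr3a, an Fc receptor, rose by 1.68 ± 0.48 beside a sham step of 1.65, and its call ended without any 1 of 5 arrays, that is each but 48 h replicate 3 (adjusted p = 0.0588 to 0.118). Igf1, the growth factor, rose by 0.64 ± 0.18, ending without 12 h replicate 1 or 3 or 48 h replicate 1 or 2 (adjusted p = 0.0872 to 0.124), and its 3 probe sets ran from 0.17 to 1.08. The list's count fell to 2 without 12 h replicate 3, and to 3 without 12 h replicate 1, 48 h replicate 1, 48 h replicate 2 or replicate 2 of both times. In the fit to the 6 arrays it was 1.

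Several well-known markers of the later response did not pass the test. Spp1, which encodes osteopontin, read -2.41, 1.05 and 0.04 at 12 h and 2.04, 2.72 and -0.04 at 48 h (adjusted p = 0.303). Gpnmb was at 0.83, 2.36 and 0.25, then 2.98, 3.35 and 1.35 (adjusted p = 0.11), and Lgals3, galectin-3, at 0.24, 3.15 and 0.62, then 2.88, 3.49 and 0.76 (adjusted p = 0.422). In each of these 3 genes the 12 h replicate 2 overlapped the 48 h arrays, and 48 h replicate 3 was the lowest 48 h array. Without replicate 2 of both times the adjusted p was 0.0598 for Gpnmb, 0.21 for Lgals3 and 0.414 for Spp1. Gpnmb was called higher in 4 of 17 other settings. Relative to the early sham mean, the 12 h and 48 h means were 2.82 and 4.23 for Gpnmb and 2.26 and 3.30 for Lgals3. For Spp1 they were 2.34 and 4.35. The sham steps of Gpnmb, Lgals3 and Spp1 were 1.44, 0.70 and 3.15.

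Of 11 complement genes 4 rose, with a median step of 0.48, below the 0.83 of the sham step. None rose in the fit to the 6 arrays and 2 after quantile normalization. C1qa, a chain of the first component of the classical pathway, read -0.48, -0.09 and -0.24 at 12 h and 1.27, 2.62 and 1.07 at 48 h, and the 48 h sham at 1.01 was close to the lowest of these. The step was 1.92 ± 0.38 (SE, adjusted p = 0.00795). C1qc rose by 1.91 ± 0.43. C1qb rose by 1.87 ± 0.51, but not without 12 h replicate 1 or 3 or 48 h replicate 2 (adjusted p = 0.0869, 0.0649 and 0.0746). C3, the central component, stood at 0.67, 3.11 and 1.59 at 48 h against 0.54, 0.39 and -0.10 at 12 h and did not pass (adjusted p = 0.0653). In antigen presentation 1 of 13 genes rose and 1 fell, beside 7.08% and 5.63% of all genes. That list's median step was 0.48 beside a sham step of 0.09. At 48 h, 9 of its 13 genes lay above all 4 shams, and at 12 h 5 did. RT1-DMb, a class II peptide loader, rose by 1.37 ± 0.34, though not without 12 h replicate 1 or 3 or 48 h replicate 2 (adjusted p = 0.0527 to 0.069), and Tap1, a peptide transporter that interferon induces, fell by 0.71 (SE 0.11). Cd74, the class II invariant chain, did not pass (adjusted p = 0.0747).

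Of 37 genes of the cell cycle and DNA replication 28 rose and none fell, with a median step of 0.82. The 48 h sham was 0.49 above the early shams in the same list and above all 3 of them in 31 of 37 genes. By array, the list's median over the early shams was -0.10, -0.14 and -0.07 at 12 h and 1.01, 1.33 and 0.41 at 48 h, so the 48 h sham lay above 48 h replicate 3. The count was 18 without replicate 2 of both times and 21 without 48 h replicate 1 or without 48 h replicate 2. It was 10 in the fit to the 6 arrays alone. Net of the sham step no gene of the list passed.

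Cdk1, the kinase that drives entry into mitosis, and its partner Ccnb2, cyclin B2, rose most among the list. Promoters of such genes are known to carry a CHR element and CCAAT boxes, and the 250 bases before the start of both genes are shown from RefSeq (GRCr8) with TTTGAA and CCAAT, on either strand, in capitals.

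Cdk1, chr20:19265043-19265292, plus strand: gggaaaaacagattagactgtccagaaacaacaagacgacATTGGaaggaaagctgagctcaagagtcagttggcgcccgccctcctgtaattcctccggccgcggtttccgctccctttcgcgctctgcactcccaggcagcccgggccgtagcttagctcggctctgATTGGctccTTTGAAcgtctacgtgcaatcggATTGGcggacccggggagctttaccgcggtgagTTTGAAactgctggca

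Ccnb2, chr8:79981659-79981908, minus strand: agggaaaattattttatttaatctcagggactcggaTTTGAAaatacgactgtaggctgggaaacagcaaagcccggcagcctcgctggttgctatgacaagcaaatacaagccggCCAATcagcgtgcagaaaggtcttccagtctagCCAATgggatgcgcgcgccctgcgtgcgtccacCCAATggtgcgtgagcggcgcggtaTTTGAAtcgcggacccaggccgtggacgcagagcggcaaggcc

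Both promoters hold several matches of each motif. Over windows from 250 bases before to 50 after the start, TTTGAA was found in 15 of the 31 list genes with a RefSeq entry (48.4%) and in 18.1% of all 27455 promoters. CCAAT was found in 23 of 31 (74.2%) and in 37.7% of all promoters. The median step was 1.27 in the 15 genes with TTTGAA and 0.78 in the other 16. These matches are letters in a window and show no binding.

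Cdk1 read -0.52, -0.69 and -0.62 at 12 h and 2.88, 3.33 and 1.32 at 48 h. The early shams lay at -0.04 to 0.32 and the 48 h sham at 1.77, above 48 h replicate 3. The step was 3.12 ± 0.39 (SE), 8.69-fold, with an adjusted p of 0.00102. Ccnb2 read -0.77, -0.34 and -0.22, then 2.60, 3.29 and 1.61, with a 48 h sham of 1.81 (step 2.94 ± 0.32, adjusted p = 0.000537). Mki67, the proliferation antigen, rose by 2.24 ± 0.35 and Ect2, needed for cell division, by 2.38 ± 0.40, and in both the 48 h sham was also above 48 h replicate 3. Pclaf, a partner of the replication clamp that was not in the list, rose by 3.22 ± 0.42 beside a sham step of 2.30. Top2a, topoisomerase II alpha, rose by 1.27 ± 0.17, with its 2 probe sets at 0.63 and 1.91.

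**Figure D2:**
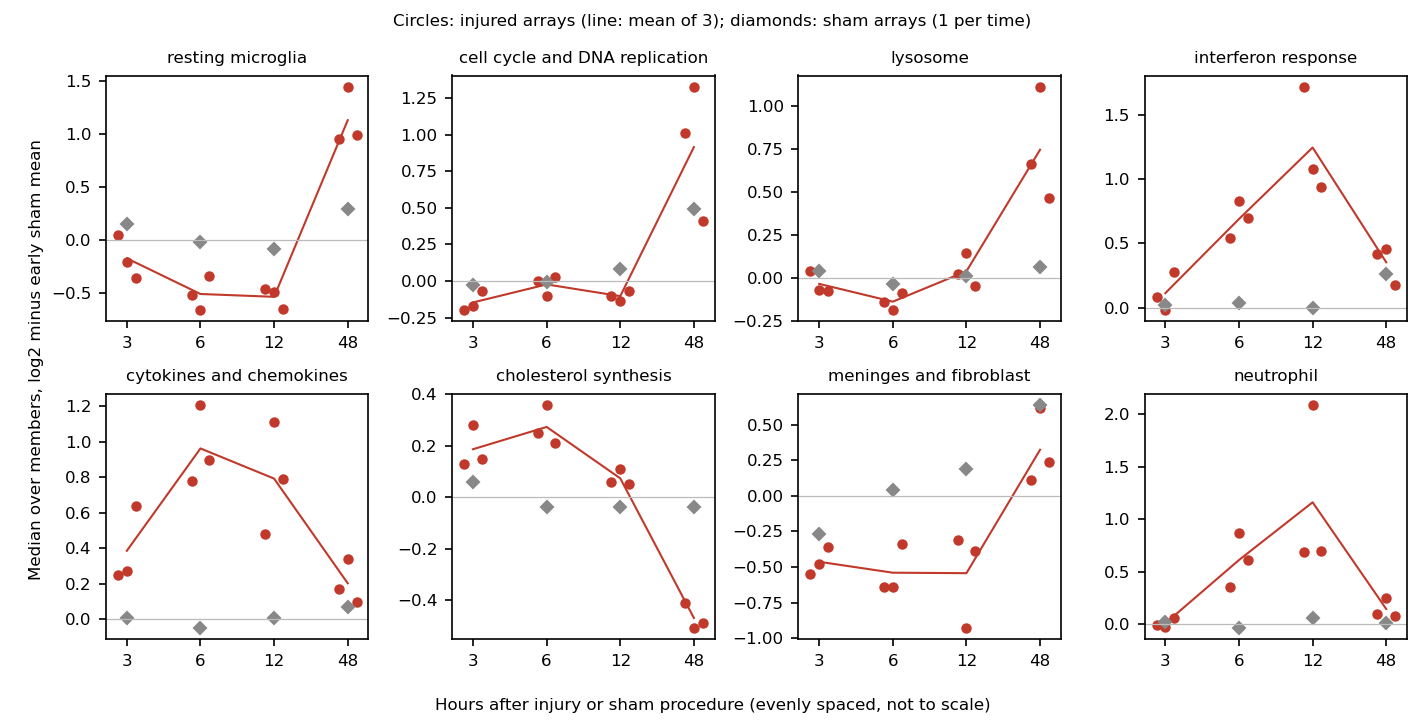
Medians over the members of 8 gene lists in every array, in log2 relative to the mean of the 3 early shams, at 3, 6, 12 and 48 h (evenly spaced). Red circles are injured arrays with a line through the mean of each time, and grey diamonds are the single sham arrays. Cholesterol synthesis lies at 0.06, 0.11 and 0.05 at 12 h and at -0.41, -0.51 and -0.49 at 48 h, while in the cell cycle list the 48 h sham, at 0.49, lies above 48 h replicate 3 (0.41).

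The largest falls were in chemokines and in genes of neutrophils. Of 30 cytokines and chemokines 9 fell and 1 rose, with a median step of -0.62 and a sham step of 0.07. In the fit to the 6 arrays 5 fell. Cxcl10, a chemokine for activated T cells, read 2.39, 0.21 and 3.68 at 12 h and -2.15, -2.11 and -2.56 at 48 h. The shams lay at -2.74 to -2.21, so the 48 h arrays were back in or just above the sham range. It fell by 4.37 (SE 0.69), 20.6-fold, with an adjusted p of 0.00283. Cxcl11, of the same receptor, fell by 2.90 (SE 0.52) to -1.30, -1.33 and -1.92, below the 48 h sham (-0.81).

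Ccl2, the main monocyte chemokine, read 0.32, 1.93 and 0.94 at 12 h and -1.77, -0.78 and -4.98 at 48 h. The early shams lay at -5.64 to -5.02 and the 48 h sham at -3.45. Only 48 h replicate 3 had come near the early shams, and the other 48 h arrays stayed above all shams. It fell by 3.57 (SE 0.82, adjusted p = 0.0166), with an adjusted p of 0.0556 without 12 h replicate 2. Ccl7, of the same family, fell by 3.07 (SE 0.55) to -0.35, 0.09 and -2.30, with early shams at -2.36 to -2.23, and again 48 h replicate 3 was the lowest.

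Other early cytokines had their highest means before 12 h. Il1b, the inflammatory interleukin, had means of 2.53 and 2.61 at 3 and 6 h, and read -0.24, 0.81 and 0.24 at 12 h and -1.80, -0.48 and -2.36 at 48 h. It fell by 1.82 (SE 0.42, adjusted p = 0.0165), but not without 12 h replicate 2 or 48 h replicate 1 (adjusted p = 0.0558 and 0.0608). Il6 averaged 2.57 and 3.09 at 3 and 6 h and differed by -0.73 ± 0.31 from 12 to 48 h (adjusted p = 0.148). For Tnf, whose 2 probe sets ran from -0.80 to 0.06, the difference was -0.37 ± 0.16 (adjusted p = 0.155). The neutrophil chemokines Cxcl1 and Cxcl2 differed by -1.43 and -1.58 and did not pass (adjusted p = 0.163 and 0.0539). Cxcl1 passed without replicate 2 of both times (-2.34, adjusted p = 0.0455).

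In the neutrophil list 4 of 10 genes fell and none rose, with a median step of -0.64, and 2 fell in the fit to the 6 arrays. S100a9 and S100a8 encode the chains of calprotectin, an abundant neutrophil protein. S100a9 read 4.63, 4.74 and 4.38 at 12 h and -0.29, 2.78 and -1.0 at 48 h, with early shams at -1.46 to -0.54 and a 48 h sham at 0.29. At 48 h, replicate 2 stayed above the shams and the other arrays overlapped them. It fell by 4.09 (SE 0.78, adjusted p = 0.00726). S100a8 fell by 3.57 (SE 0.57), with the same replicate highest at 48 h (1.70, against -0.32 and -0.33). Il1r2, the decoy interleukin 1 receptor, fell by 3.61 (SE 0.54) from 3.39, 4.84 and 3.53 to 0.02, 1.09 and -0.17. Slpi, an inhibitor of neutrophil elastase that was not in the list, fell by 2.90 (SE 0.66), and not without 12 h replicate 2 or 48 h replicate 1 (adjusted p = 0.0537 and 0.057). Mmp9, a matrix protease of neutrophils, fell by 1.41 (SE 0.40), and not without any 1 of the 48 h arrays (adjusted p = 0.0589 to 0.117).

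Lcn2, a secreted protein of neutrophils and reactive astrocytes, did not follow them. It read 1.72, 0.79 and 2.13 at 12 h and 1.32, 1.77 and 1.32 at 48 h, with early shams at -4.83 to -3.61 and a 48 h sham at -2.36. All 6 injured arrays were far above the shams, and the 2 times overlapped. The difference was -0.08 ± 0.44 (SE, adjusted p = 0.94).

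Of 23 interferon response genes 10 fell and 1 rose, with a median step of -0.65, while the 48 h sham was 0.26 above the early shams. Relative to the early shams, the list's median was 1.72, 1.08 and 0.94 in the 12 h arrays and 0.42, 0.46 and 0.18 in the 48 h arrays. At 12 h, 17 of 23 genes lay above all shams, and at 48 h 3 did. The count of 10 was 9 to 10 with 1 array left out, 11 without replicate 2 of both times and 7 in the fit to the 6 arrays. The gene that rose was Ifi27 (1.29 ± 0.18), named after its value was seen.

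Rsad2, which encodes the antiviral protein viperin, and Ifit3, of a family that binds viral RNA, fell most in the list. Interferon-regulated promoters carry repeats of GAAA, and the 250 bases before the start of these genes are shown from RefSeq (GRCr8), with GAAA, any 2 bases, GAAA on either strand in capitals.

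Rsad2, chr6:48788121-48788370, minus strand: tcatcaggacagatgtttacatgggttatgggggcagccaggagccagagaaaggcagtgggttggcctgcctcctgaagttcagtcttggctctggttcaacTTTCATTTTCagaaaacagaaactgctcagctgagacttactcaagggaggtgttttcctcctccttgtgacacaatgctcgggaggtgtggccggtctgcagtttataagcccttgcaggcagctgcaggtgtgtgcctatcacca

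Ifit3, chr1:241527076-241527325, plus strand: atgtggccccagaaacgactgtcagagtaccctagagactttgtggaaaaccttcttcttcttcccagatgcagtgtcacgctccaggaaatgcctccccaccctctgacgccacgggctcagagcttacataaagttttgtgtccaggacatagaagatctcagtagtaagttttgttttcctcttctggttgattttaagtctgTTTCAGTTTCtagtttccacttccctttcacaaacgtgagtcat

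Each held 1 match, read on the strand opposite to the gene. This motif was chosen after the values were seen. It was found in 12 of the 18 list genes with a RefSeq promoter (66.7%) and in 3.77% of all promoters, in windows of the same extent as above. The median step was -0.60 in the 12 genes with it and -0.57 in the other 6.

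Rsad2 read 3.66, 2.34 and 2.83 at 12 h and 0.70, -0.26 and -0.08 at 48 h, against early shams of -0.67 to -0.22 and a 48 h sham of -0.07. The 12 h arrays were above all shams, and the 48 h arrays overlapped them. It fell by 2.82 (SE 0.32), 7.08-fold, with an adjusted p of 0.000683. Ifit3 fell by 2.70 (SE 0.33) from 0.97, 2.54 and 1.46 to -1.02, -0.84 and -1.26, all below the highest sham (-0.60). Isg15, a ubiquitin-like protein, fell by 2.14 (SE 0.21) from 2.65, 2.31 and 1.88 to 0.43, 0.07 and -0.09. Its lowest 48 h array was just above the highest sham (-0.15). Tap1, noted above, had 2 probe sets at -1.46 and 0.03.

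Feedback and activity genes fell in part. Of 12 NF-kB targets and inhibitors 5 fell and none rose, with a median step of -0.56, and 11 of 12 had been above all shams at 12 h. The count was 3 in the absence of 12 h replicate 3 or of replicate 1 or 3 at 48 h, and 8 without 48 h replicate 2. It was 3 in the fit to the 6 arrays. Sod2, the mitochondrial superoxide dismutase, had closely grouped arrays at 0.80, 0.82 and 0.83, then -0.26, -0.11 and -0.34, with shams from -0.33 to -0.01. It fell by 1.05 (SE 0.11, adjusted p = 0.000457). Icam1, the leukocyte adhesion molecule, fell by 1.23 (SE 0.24) to -1.18, -0.57 and -1.50, of which all but replicate 3 remained above the 4 shams. Birc3, an apoptosis inhibitor, fell by 1.06 (SE 0.26), and not without the third 12 h array or replicate 1 or 3 at 48 h (adjusted p = 0.0528 to 0.0742).

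In the immediate early list 7 of 23 genes fell and none rose, with a median step of -0.35, while 18 of 23 were higher in the 48 h sham than in all earlier shams (median sham step 0.60). Leaving out 48 h replicate 1 gave a count of 2, leaving out 12 h replicate 2 gave 3 and leaving out 48 h replicate 2 gave 4. Without replicate 2 of both times the count was 3, and in the fit to the 6 arrays none of the 23 was called. Myc, the growth regulator, fell by 1.14 (SE 0.27) from 0.59, 1.56 and 0.49 to -0.07, 0.07 and -0.79. Fosl1, an AP-1 subunit, fell by 1.36 (SE 0.37), with its 12 h and 48 h arrays overlapping. Its call ended without 12 h replicate 2 or 3 or 48 h replicate 1 or 3 (adjusted p = 0.0755 to 0.109). For Fos, of the same family, the mean of its 2 probe sets fell by 0.41 (SE 0.12), with the probe sets at -0.84 and 0.02, and not without 12 h replicate 1 or 2 or 48 h replicate 1 or 2 (adjusted p = 0.0629 to 0.149). Atf3, a stress-induced factor, read -0.25, 1.81 and -0.22, then 0.22, -0.40 and -1.27 (adjusted p = 0.247). Among 16 p53 targets and apoptosis genes 2 fell, none without 48 h replicate 1 and 4 without 12 h replicate 1. Gadd45b, a stress gene, fell by 2.00 (SE 0.49), and not without 48 h replicate 1 (adjusted p = 0.0818). Its relative Gadd45g, in no list, fell by 2.41 (SE 0.38), and all its 48 h arrays lay in the range of the shams.

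Cholesterol synthesis was lower at 48 h than in either the 12 h arrays or the shams. Of 17 genes 12 fell and none rose, with a median step of -0.51 and a sham step of -0.04, and 13 of 17 lay below all 4 shams at 48 h. The count was 9 to 11 with 1 array left out, 10 without replicate 2 of both times and 8 in the fit to the 6 arrays. Idi1, an isomerase of the isoprenoid pathway, read 0.03, 0.15 and -0.01 at 12 h and -1.0, -0.93 and -1.19 at 48 h, with shams at -0.35 to -0.04. Its 48 h arrays lay below every sham. It fell by 1.10 (SE 0.13, adjusted p = 0.000782). Msmo1, a sterol oxidase, fell by 1.06 (SE 0.14). Insig1, the sterol-responsive brake on the pathway's transcription factor, fell by 1.39 (SE 0.20) from -0.46, 0.41 and 0.32 to -1.38, -1.12 and -1.41.

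In the lipid efflux list 1 of 11 genes rose, beside 7.08% of all genes. This was Pltp, which transfers phospholipid between lipoproteins, at -0.78, -0.54 and -0.56 and then 0.72, 1.22 and 0.69. All shams (-0.03 to 0.31) lay between the groups. The step was 1.50 ± 0.16 (SE, adjusted p = 0.000474). In prostaglandin and leukotriene synthesis 2 of 10 genes rose and 1 fell. Ltc4s, leukotriene C4 synthase, rose by 1.12 ± 0.10 (adjusted p = 0.000176) and Hpgds, a prostaglandin D synthase, by 1.39 ± 0.22. Ptges, the inducible prostaglandin E synthase, fell by 1.60 (SE 0.41), and not without 12 h replicate 2 or 3 or 48 h replicate 1 or 3 (adjusted p = 0.0656 to 0.094).

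**Figure D3:**
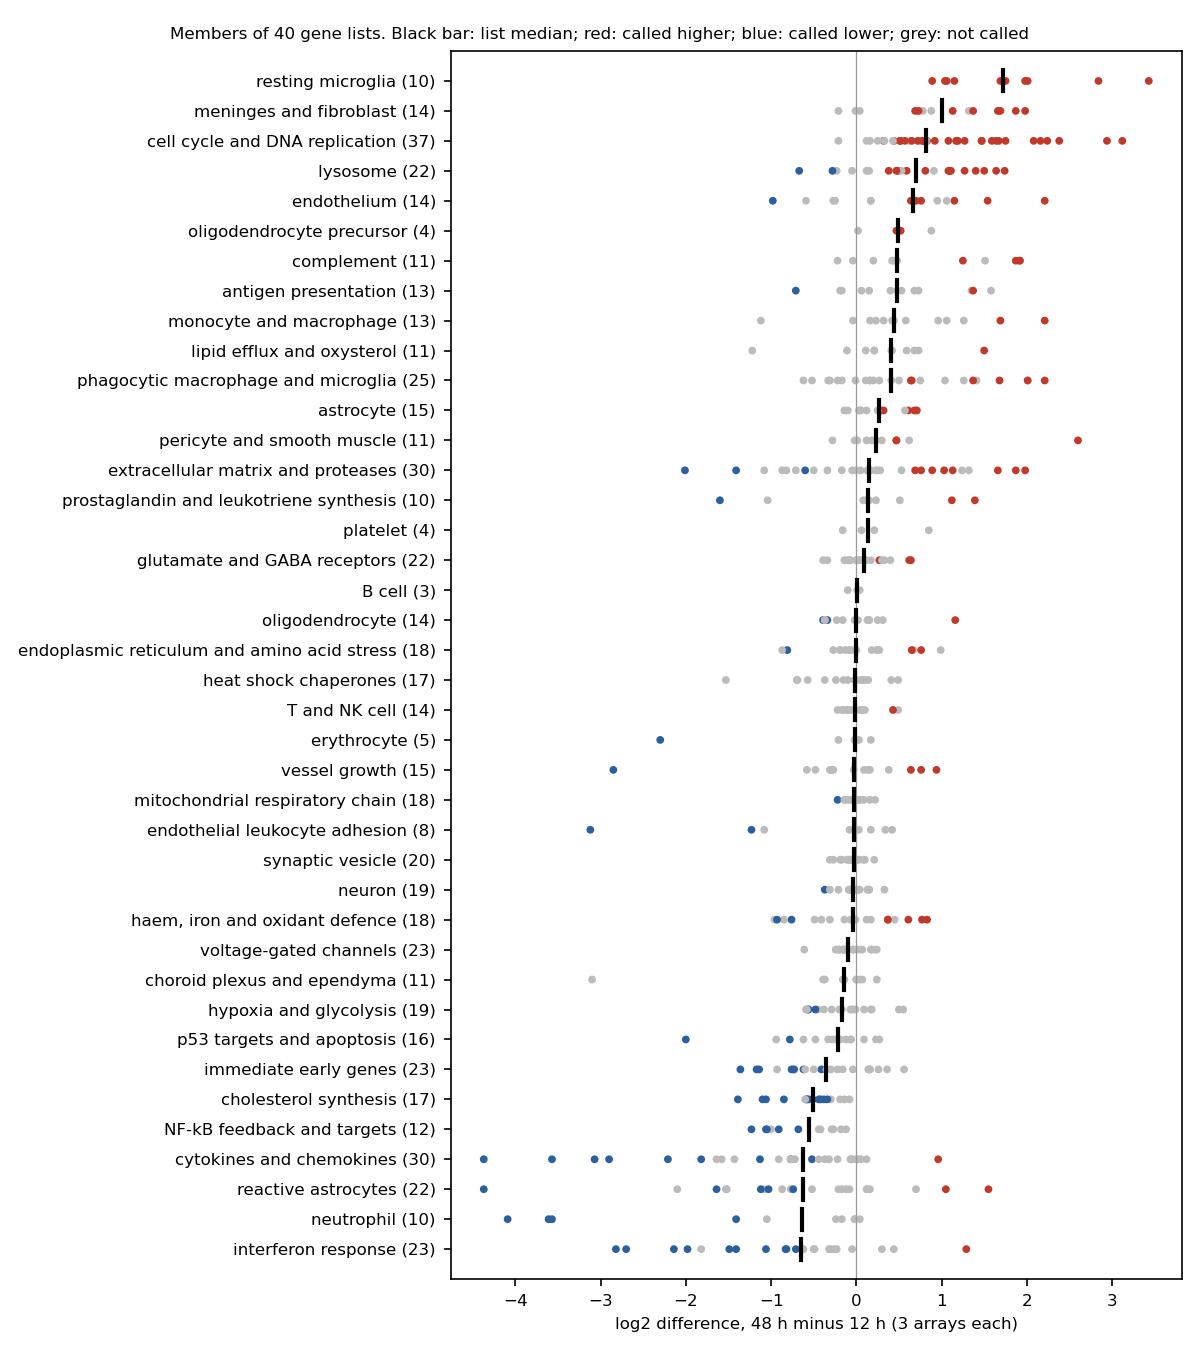
Steps from 12 to 48 h (log2) of every measured member of 40 gene lists, ordered by list median, with the number of measured members in brackets. Each point is a gene, red where called higher, blue where called lower and grey where not called, and the black bar is the median. Resting microglia is at the top with a median of 1.72 and the interferon response at the bottom with -0.65.

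Vessel genes moved in both directions. Of 14 endothelial genes 6 rose and 1 fell, with a median step of 0.67 and a sham step of 0.10, and 5 of 14 were below all shams at 12 h. The gene that fell was Mfsd2a, named after its value was seen, and none fell without 48 h replicate 1 or 3. The count of 6 was 3 without 48 h replicate 2, and 2 both without replicate 2 of both times and in the fit to the 6 arrays. Abcg2, an efflux pump of the blood-brain barrier, read -0.45, -1.49 and -1.10 at 12 h and 0.52, 0.14 and 0.91 at 48 h, rising by 1.54 ± 0.30 (adjusted p = 0.00795). Its early shams ran from 0.17 to 1.81 and its 48 h sham was at -0.16. Slco1a4, a brain endothelial transporter, rose by 2.21 ± 0.50, though not without 48 h replicate 1 (adjusted p = 0.0602). Its sham step was 0.93, and its 48 h sham, at 1.11, lay within its 48 h arrays (1.16, 0.64 and 0.52). Cldn5, the tight junction protein, rose by 0.70 ± 0.18, though not without 12 h replicate 2 or 3 or 48 h replicate 2 or 3 (adjusted p = 0.0537 to 0.0808).

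Angpt2, the angiopoietin that loosens vessels, fell by 2.85 (SE 0.36, adjusted p = 0.0011), from 2.85, 2.95 and 1.90 to -0.67, 0.39 and -0.57. The 12 h arrays were above all shams and the 48 h arrays overlapped the sham range of -0.99 to -0.04. Tek, its receptor, rose by 0.76 ± 0.21, though not without any 1 of 5 arrays, all but 12 h replicate 1 (adjusted p = 0.057 to 0.11). Apln, a vessel growth peptide, rose by 0.94 ± 0.12, with its 48 h sham, at 0.46, within its 48 h arrays (0.48, 0.36 and 0.30). In the whole vessel growth list 3 of 15 genes rose and 1 fell, beside 7.08% and 5.63% of all genes. That list's median step was -0.03 beside a sham step of 0.21, and 1 gene rose without replicate 2 of both times or after quantile normalization. Of 8 genes of endothelial leukocyte adhesion 2 fell, Sele and Icam1. Sele, the endothelial selectin that slows leukocytes, read 1.08, 2.00 and 2.61 at 12 h and -1.08, -1.28 and -1.32 at 48 h, in the range of the shams (-1.50 to -1.11) but for replicate 1 just above. It fell by 3.12 (SE 0.76, adjusted p = 0.0213), and not without 12 h replicate 2 or 3 or 48 h replicate 1 or 2 (adjusted p = 0.0547 to 0.0641). Vegfa differed by -0.29 ± 0.12 (adjusted p = 0.137). Angptl4, a lipoprotein lipase inhibitor that was in no list, fell by 2.50 (SE 0.49).

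Fibroblast genes rose in part, and were also high in the 48 h sham. Of 14 genes of meninges and fibroblasts 8 rose and none fell, with a median step of 1.0 beside 0.64 in the sham. Against the early shams the list's median was -0.31, -0.93 and -0.39 at 12 h, 0.11, 0.62 and 0.24 at 48 h and 0.64 in the 48 h sham, so no injured array exceeded that sham. No gene of the list lay above all shams at 48 h. The count was 5 without 48 h replicate 2 and in the fit to the 6 arrays, and 4 without replicate 2 of both times. How much meninges each piece of cortex carried was not tested.

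Lum, a collagen-binding proteoglycan, read -0.47, -1.35 and -0.37, then 1.19, 1.30 and 0.93, with a 48 h sham of 1.30. It rose by 1.87 ± 0.25 (SE, adjusted p = 0.00142). Col1a1, a chain of fibrillar collagen, rose by 1.13 ± 0.15, with its probe sets at 0.47 and 1.79. Col3a1, another fibrillar collagen, rose by 1.98 ± 0.45, though not without 48 h replicate 2 (adjusted p = 0.0569), and its 48 h sham stood at 2.50. Of the 30 matrix genes and proteases 8 rose and 3 fell. Without replicate 2 of both times 4 rose, and without 48 h replicate 1 or 3 only 1 fell. In the fit to the 6 arrays 4 rose and none fell. Adamts1, a protease that cuts proteoglycans, fell by 2.01 (SE 0.46). Timp1, an inhibitor of matrix proteases, and Fn1, fibronectin, differed by -0.87 and 0.23 and did not pass (adjusted p = 0.211 and 0.742).

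Of 11 genes of pericytes and smooth muscle 3 rose, with a median step of 0.23 and a sham step of 0.12, and 1 did in the fit to 6 arrays. Rgs5, a regulator of G protein signalling in pericytes, rose by 0.47 ± 0.13, though not without replicate 1 or 3 of either time (adjusted p = 0.0638 to 0.0921). Its sham step was larger, at 0.66, and its 48 h sham (0.68) lay above all its 48 h arrays (0.06, -0.01 and 0.38). Cspg4, the proteoglycan NG2 of pericytes and oligodendrocyte precursors, rose by 0.47 ± 0.11, though not without replicate 2 of 12 h or of 48 h (adjusted p = 0.0602 and 0.0643). Tagln, transgelin, a protein of contractile cells, read 0.42, 0.73 and -1.15 at 12 h and 2.78, 3.06 and 1.97 at 48 h, above every sham (highest 0.96), and rose by 2.60 ± 0.41 (adjusted p = 0.00288). Myl9, a myosin light chain of smooth muscle that was in no list, was at -0.94, -0.79 and -0.64 and then 1.54, 1.58 and 1.18, with all shams in between. It rose by 2.22 ± 0.12 (adjusted p = 4.96e-06).

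Astrocyte genes were divided. Of 15 astrocyte markers 5 rose and none fell, with a median step of 0.27 and a sham step of -0.04. In the absence of 12 h replicate 2 or of replicate 2 or 3 at 48 h, and in the fit to the 6 arrays, 3 rose. Gfap was in this list and in the reactive list below. Aldh1l1, a folate enzyme, rose by 0.71 ± 0.12, Slc4a4, a bicarbonate transporter, by 0.68 ± 0.10 and Aqp4, the water channel, by 0.61 ± 0.12. Their sham steps were -0.22, -0.06 and 0.40. The 48 h sham of Aqp4, at 0.42, lay within its 48 h arrays (0.61, 0.33 and 0.45). Of 22 reactive astrocyte genes 5 fell and 2 rose, with a median step of -0.63. Their median was still 1.13, 1.81 and 0.42 above the early shams at 48 h, against 1.45, 1.58 and 0.99 at 12 h. Without 48 h replicate 2, 9 fell, and in the fit to the 6 arrays 3 fell and none rose. S1pr3, a sphingosine phosphate receptor, fell by 1.64 (SE 0.35). Vim, vimentin, rose by 1.55 ± 0.42, though not without 12 h replicate 3 or 48 h replicate 1 or 2 (adjusted p = 0.0999 to 0.121). Gfap, the astrocyte filament protein, read 0.91, 0.66 and -0.14, then 1.20, 1.28 and 1.04, and the difference of 0.70 ± 0.24 did not pass (adjusted p = 0.0832). Its 48 h sham, at 0.61, was also above the early shams (-0.83 to -0.40).

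Few markers of neurons, synaptic vesicle genes or channels were called. Of 19 neuron markers 1 fell, near the 5.63% of all genes. None of 20 synaptic vesicle genes and none of 23 voltage-gated channels was called. The list medians were -0.04, -0.03 and -0.10. By limma, 1 of the 20 and 3 of the 23 had an unadjusted p under 0.05. Without 48 h replicate 3 the lower counts were 3, 2 and 2. Against the early shams, the neuron median was -0.15, -0.18 and -0.15 at 12 h and -0.29, -0.32 and -0.01 at 48 h. For synaptic vesicles it was -0.09, -0.16 and -0.10, then -0.33, -0.31 and 0.02, and for channels -0.12, -0.15 and -0.11, then -0.22, -0.34 and -0.03. In each list 48 h replicates 1 and 2 thus lay below the 12 h arrays and replicate 3 above them. Rbfox3, the nuclear marker NeuN, fell by 0.37 (SE 0.10), and not without any 1 of 5 arrays, all but 48 h replicate 3 (adjusted p = 0.0503 to 0.124). Slc17a7, the vesicular glutamate transporter, read 0.04, 0.01 and 0.03, then -0.16, -0.15 and 0.14 (adjusted p = 0.601). Camk2a, a kinase of excitatory neurons, Pvalb and Sst, markers of interneurons, differed by -0.08, 0.04 and -0.04 (adjusted p = 0.746, 0.841 and 0.889). Of 22 glutamate and GABA receptor subunits 3 rose, beside 7.08% of all genes. The count was 2 without replicate 2 of both times and 1 in the fit to the 6 arrays. Gabra2 was at -0.14, -0.20 and -0.32 and then 0.39, 0.40 and 0.41, rising by 0.62 ± 0.10 (adjusted p = 0.00347), and Grm3 rose by 0.64 ± 0.12. The sham steps of Gabra2 and Grm3 were 0.30 and 0.06.

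In the oligodendrocyte list 1 of 14 genes rose and 2 fell, beside 7.08% and 5.63% of all genes. None fell without 48 h replicate 2. Olig1, a lineage transcription factor, rose by 1.16 ± 0.23 (adjusted p = 0.00936), with an adjusted p of 0.0866 without replicate 2 of both times. Mbp, myelin basic protein, fell by 0.39 (SE 0.09), and not without 48 h replicate 2 (adjusted p = 0.0675). Of 4 precursor genes 2 rose, none without 12 h replicate 2 or 48 h replicate 2, and of these Ptprz1, a phosphatase, lost its call without 12 h replicate 2 or 3 or 48 h replicate 1 or 2 (adjusted p = 0.0539 to 0.0774).

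None of 17 heat shock chaperones was called by limma (3 had an unadjusted p under 0.05). The core of the heat shock element, GAANNTTC, was found in 11 of their 16 RefSeq promoters (68.8%) and in 8.34% of all promoters. Hspb1, a small heat shock protein, read 2.06, 2.70 and 1.02, then 0.38, 1.64 and -0.84 (adjusted p = 0.104). Hspa1a, the inducible Hsp70, differed by -0.02 ± 0.31 (adjusted p = 0.977). In the endoplasmic reticulum list 2 of 18 genes rose and 1 fell, beside 7.08% and 5.63% of all genes. Atf4, the factor of the amino acid response, fell by 0.81 (SE 0.11, adjusted p = 0.00181), to -0.48, -0.49 and -0.61, below all shams (-0.18 to -0.09). Psat1, a serine synthesis enzyme, rose by 0.65 ± 0.09.

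In haem, iron and oxidant defence 5 of 18 genes rose and 2 fell. Gpx1, glutathione peroxidase, rose by 0.83 ± 0.14 and Slc7a11, the cystine transporter, by 0.77 ± 0.11, while Txnrd1, thioredoxin reductase, fell by 0.93 (SE 0.15). Their sham steps were 0.33, 0.53 and -0.24. The 48 h sham of Slc7a11, at 0.56, lay within its 48 h arrays (0.53, 0.17 and 0.66). Hmox1, haem oxygenase, read 0.09, 2.46 and 0.41, then 0.82, 1.36 and -0.69, and did not pass (adjusted p = 0.696). In the fit to the 6 arrays 1 of the 18 rose and none fell. Of 19 hypoxia and glycolysis genes 3 fell and of 18 respiratory chain genes 1 did, the latter near the 5.63% of all genes. Hif1a, the hypoxia factor, fell by 0.56 (SE 0.16), and not without any 1 of 5 arrays, all but 12 h replicate 3 (adjusted p = 0.0506 to 0.103). Without 48 h replicate 1, or in the fit to the 6 arrays, none of the 19 was called.

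Among other cells that the tissue could hold, in monocytes and macrophages 2 of 13 genes rose, Cd68 and Csf1r, with the values given above. Against the early shams that list's median was 0.19, 0.63 and 0.28 at 12 h, 0.98, 2.10 and 0.76 at 48 h and 0.26 in the 48 h sham, so every 48 h array was above every 12 h array. In T and NK cells 1 of 14 genes rose, close to the 7.08% of all genes. This was Cd8b, a coreceptor chain of T cells (0.43 ± 0.12), whose 12 h and 48 h arrays overlapped and whose call ended without 12 h replicate 1 or 3 or 48 h replicate 1 or 2 (adjusted p = 0.0989 to 0.137). None of 3 B cell and 4 platelet genes was called by limma (0 and 1 with an unadjusted p under 0.05). Hbb, a haemoglobin chain, fell by 2.30 (SE 0.52, adjusted p = 0.0152), with an adjusted p of 0.0828 without replicate 2 of both times, and it was the only 1 of 5 erythrocyte genes called. None of 11 choroid plexus and ependyma genes was called by limma (3 with an unadjusted p under 0.05). Ttr, transthyretin of the choroid plexus, read 1.97, 0.11 and 5.49 at 12 h and -0.41, -0.74 and -0.58 at 48 h, a difference of -3.10 that did not pass (adjusted p = 0.138).

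**Figure D4:**
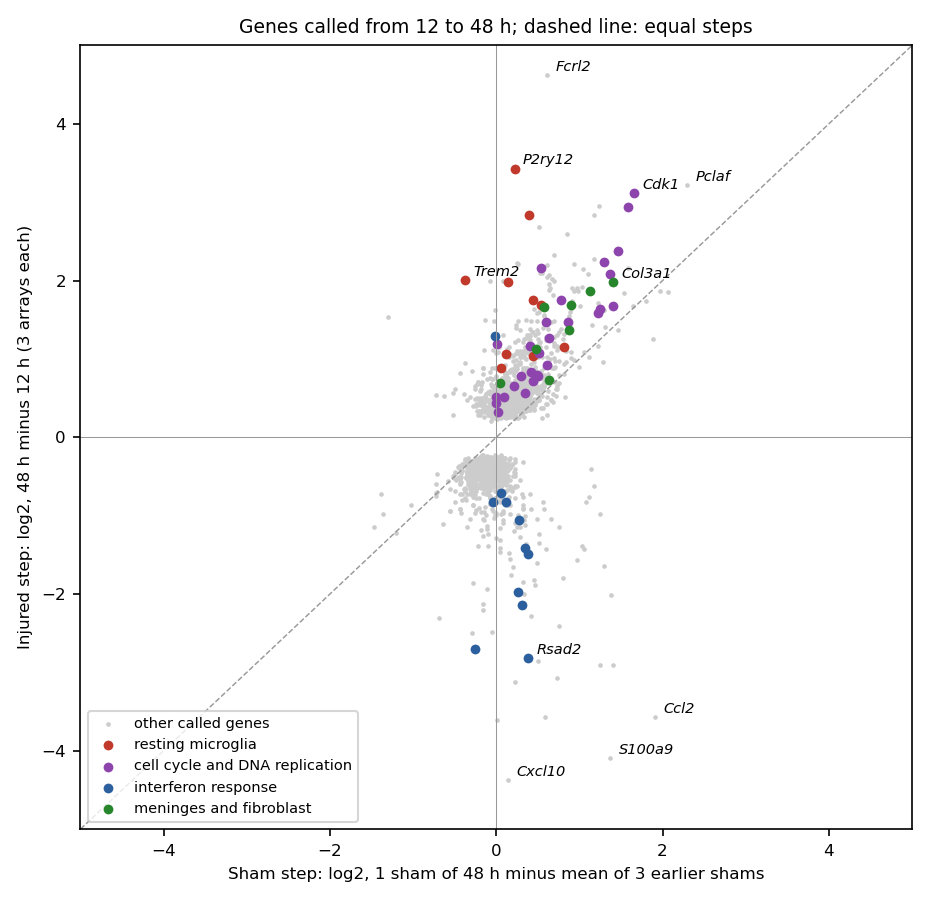
Injured step from 12 to 48 h against the sham step (48 h sham minus the mean of the 3 earlier shams), in log2, for the 1807 called genes. Points on the dashed line moved equally in both. Resting microglia genes (red) lie above the dashed line, and 10 of the 11 interferon genes (blue) lie below 0 on the injured axis, while Cdk1 and Pclaf stand at sham steps of 1.66 and 2.30.

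When the sham step was subtracted within a fit to all 16 arrays, 15 genes were called higher (0.106% of 14217) and 14 lower (0.0985%). Of the 15, 14 were also called higher in the injured step by itself. The exception was Alb, albumin, named after its values were seen, whose injured step was 0.08 (adjusted p = 0.909) beside a sham step of -3.82. In that fit 1298 genes had an unadjusted p under 0.05. The sham step rests on 1 array at 48 h, so its own spread at that time is assumed to equal that of the other groups. Fcrl2 (4.01 ± 0.66, SE, adjusted p = 0.0195), P2ry12 (3.21 ± 0.51, adjusted p = 0.0178), Gpr34 (2.45 ± 0.37, adjusted p = 0.0119) and Trem2 (2.39 ± 0.29, adjusted p = 0.00641) passed upwards. Golm1, Myl9, Pltp and Ltc4s did too. Rsad2, Isg15, Sod2 and Idi1 passed downwards, with Rsad2 at -3.20 ± 0.52 (adjusted p = 0.0186). Fos passed as well (-1.55, adjusted p = 0.0485), but most of its net step was the sham step of 1.14, beside an injured step of -0.41 whose call ended in 11 of 16 other settings. S100a9, at -5.46 ± 1.27 (adjusted p = 0.123), and Ccl2, at -5.48 ± 1.32 (adjusted p = 0.128), had larger net steps with larger errors and did not pass. The median net step was -0.84 in the neutrophil list and -0.53 in the cytokines and chemokines. Cdk1 (1.46 ± 0.62, adjusted p = 0.497), C1qa (0.90 ± 0.61, adjusted p = 0.72) and Lum (0.74 ± 0.41, adjusted p = 0.649) did not pass either.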

How the data were processed

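Polyadenylated RNA from contused cortex and sham cortex was hybridised to 16 Affymetrix rat arrays. The deposited log2 values were made by the authors with RMA, per the submitters' processing notes. The log base and the centring are not stated in the sources used here: the median of every probe set over the 16 arrays is 0.0, and the values were read as log2. Precision is limited by how few arrays there are.

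Of 31099 probe sets, 57 controls were left out, 9780 had no gene and 436 several in the platform annotation, and 20826 with 1 gene were averaged to 14217 genes (20758 probe sets took a current RefSeq symbol, 68 kept the old one). limma 3.58.1 in R 4.3.3 was fitted to the 12 injured arrays in 4 groups (8 residual degrees of freedom), with eBayes and Benjamini-Hochberg adjustment over all genes. A permutation test over 3 against 3 arrays cannot go below 0.1. The net step was fitted to 16 arrays in 6 groups, with the 3 early shams as 1 group. Gene lists are described by counts and medians.

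Genes were named as the 15 largest called changes per direction whose 12 h and 48 h arrays did not overlap. To these came up to 3 called members per list and a fixed panel (128 genes in all). Members and lists were chosen with earlier results of these data known.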

Additional observations from a re-analysis of the deposited data

Results flagged for a closer look

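Among the 9780 probe sets listed with no gene, which no comparison used, 161 were higher (1.65%) and 184 lower (1.88%) at 48 h than at 12 h. These shares were below those of all genes (7.08% higher and 5.63% lower). The polyA spike-in controls, added to the sample before labelling, averaged -1.69 in 12 h replicate 2, lower than in any other array. Chosen by a test of the difference itself, the injured step differed from the sham step in 15 genes upwards and in 14 downwards. The net steps of the named genes among them were 4.01 for Fcrl2, 3.21 for P2ry12, 2.45 for Gpr34, 2.39 for Trem2, 2.17 for Golm1, 1.98 for Myl9, 1.64 for Pltp and 1.28 for Ltc4s. Downwards they were -3.20 for Rsad2, -2.45 for Isg15, -1.55 for Fos, -1.37 for Idi1 and -1.35 for Sod2.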

How the results depend on the processing

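The counts of higher and lower genes moved with the spread estimate. They were 264 and 124 in the fit to the 6 arrays alone, whose 388 calls were all among the 1807, and 289 and 128 with a replicate block on those arrays. Same-numbered arrays correlated by 0.09, 0.19 and 0.19 in their deviations from the group means, and arrays of unlike number by -0.17 to -0.01. Each 12 h array thus correlated best with its own number. With 3 arrays per time this cannot tell whether the numbers pair the samples. Without replicate 2 of both times 499 genes rose and 325 fell, and with 1 array left out 582 to 1137 and 435 to 949. Quantile normalization gave 640 higher genes, empirical array weights gave 533 lower genes and genes with 1 probe set gave 498. Requiring 2-fold left 189 and 79. Net of sham, the counts of 15 and 14 became 1165 and 1015 with no sham subtracted, 7 and 5 with the 12 h sham as the only earlier sham, and 52 lower genes without replicate 2 of both times. They were 14 to 70 and 11 to 50 with 1 injured array left out. Among the 103 called named genes no step turned its direction, except in the weakest probe set of Tap1 (0.03) and of Fos (0.02) taken by itself. Of the 25 named genes that were not called, 8 took both signs over the settings (Lcn2, Hmox1, Hspa1a, Tgfb1, Fn1, Camk2a, Pvalb and Sst). Of 103 called named genes, 65 kept their call whichever single array was left out. The causes were not tested, other than fewer arrays or genes where a setting has them. With no sham replicate at 48 h, the net step is the least precise quantity, and centred array values set no level of detection.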

Other observations

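Several groups outside the lists were named after their values were seen, and are given as values only. The interferon-induced GTPases Irgm2, Igtp, Irgm and Gbp7 fell, with steps of -2.28, -1.76, -1.42 and -1.42. Their sham steps were 0.42, 0.18, 0.60 and 1.06, so each ran against the injured step. Genes of myeloid cells, Folr2 (a folate receptor), Mpeg1 (a pore-forming protein), Unc93b1 (an escort of endosomal toll-like receptors) and Cd33 (a sialic acid lectin), rose by 2.10, 2.04, 1.88 and 1.84. The sham steps were 0.53, 0.61, 0.63 and 1.54. Fabp7 and Prom1, known from radial glia and progenitors, rose by 2.08 and 1.99, with sham steps of 1.10 and 0.69.

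Fkbp5, a glucocorticoid-induced gene, fell by 1.14, and the sham step was -1.47. Rbm3, a cold-inducible RNA-binding protein, fell by 1.22, and the sham step was -1.20. In Alb the net step was 3.91 (adjusted p = 0.00769), with an injured step of 0.08 and a sham step of -3.82, so the sham alone moved there.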
